A study of Brassica napus with 12 samples.

Results

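The canola line PEG-2 was compared with the PEG control line at the level of ribosome-bound RNA in the leaf. The comparison held 4 of the 12 libraries of the series, chosen by their column names: PEG-2 replicates 1 and 2 and PEG control replicates 1 and 2. The other 8 libraries came from PEG-1, a second line selected in the same experiment, and from the EUE experiment, with its own selected epiline and control. All lines were Brassica napus of a biennial oleifera type, and the labels give PEG-2 as a selected epiline and the PEG control as the control line of both PEG epilines. The title of the series speaks of selection for energy efficiency and drought tolerance. Its design text describes 2 epilines, which it does not identify, as low in respiration and high in NAD(P)H, and speaks of triplicates, whereas each PEG group analysed here had 2 libraries. Each selected line is a single line, so what is common to the line and what came from selection cannot be told apart. Plants of both lines were 26 days old, had spent 2 weeks on agar and 12 days in soil, and received no treatment. RNA came from ground material of leaf 4. The labels call the libraries biological replicates without saying whether each came from separate plants, so a p-value measures only the spread between these libraries.

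Polysomes are mRNAs carrying several ribosomes at once. Pelleting them through dense sucrose separates transcripts that are being translated from free mRNA, so the amount of a transcript in the pellet depends both on how much of it the leaf holds and on how heavily it is loaded. Respiration and the pool of NAD(P)H set how much carbon a leaf spends to supply energy and reducing power. Canola is a polyploid that carries the genomes of both Brassica rapa and Brassica oleracea, so most of its genes exist in several closely similar copies, which matters for how reads are assigned to a gene. In bulk leaf RNA, fewer cells of a type and less RNA per cell cannot be told apart.

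The deposited table listed 60756 gene IDs, each counted in all 12 libraries. An ID was a number with the prefix ERF, a number with the prefix ERC, or a pair of both joined by a hyphen. The sources used here do not say what the prefixes stand for. There were 21260 joined IDs, 21922 ERF-only IDs and 17574 ERC-only IDs, and no ERF or ERC number occurred in more than 1 ID. None of the IDs is paired with a gene name (0 matched the RefSeq gene table), so no function, pathway or cell type marker could be assigned, and the labelled leaf tissue could not be checked against marker genes. Total counts were 38297674 and 36210542 in PEG-2, and 36288544 and 37853774 in the PEG control. PEG-2 had 39957 and 39762 IDs with at least 1 count, and the PEG control had 39791 and 39958. Levels are given as CPM, the count scaled by the TMM-adjusted size of its library, and they are not divided by gene length, so they compare libraries and not genes.

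The bulk of the polysomal RNA had the same make-up in both lines by class of ID. Joined IDs took 70.5% ± 0.275 of the counts in PEG-2, against 70.5% ± 0.279 in the PEG control (SD, n = 2 each). ERF-only IDs took 17.7% ± 0.234 in PEG-2, against 17.6% ± 0.231 in the PEG control, and ERC-only IDs took 11.8% ± 0.0404 in PEG-2, against 11.9% ± 0.0485 in the PEG control (SD, n = 2 each). The 100 most abundant IDs of a library took 36.8% and 39.4% of its counts in PEG-2, against 38.7% and 38.9% in the PEG control. The libraries of both lines overlapped in the shares of joined IDs, of ERF-only IDs and of the top 100. In the ERC-only share they did not, at 11.76% and 11.82% in PEG-2, against 11.90% and 11.83% in the PEG control, a gap smaller than the spread within either line.

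PEG control replicate 1 stood apart from PEG control replicate 2 by more than the PEG-2 replicates did from each other. Among the 17035 IDs that averaged 5 CPM or more across the 4 libraries, 403 (2.37%) differed at least 2-fold between the PEG-2 replicates and 1525 (8.95%) between the PEG control replicates. PEG-2 replicate 1 differed at least 2-fold from PEG control replicate 1 in 269 IDs and from PEG control replicate 2 in 934. PEG-2 replicate 2 differed from PEG control replicate 1 in 1210 IDs and from PEG control replicate 2 in 266. Libraries with the same replicate number were thus closer to each other across the lines than the replicates of either line were. Against PEG-1, PEG-2 replicate 1 differed at least 2-fold from replicate 1 in 243 IDs and from replicate 2 in 855. For PEG-2 replicate 2 these counts were 246 and 161.

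**Figure D1:**
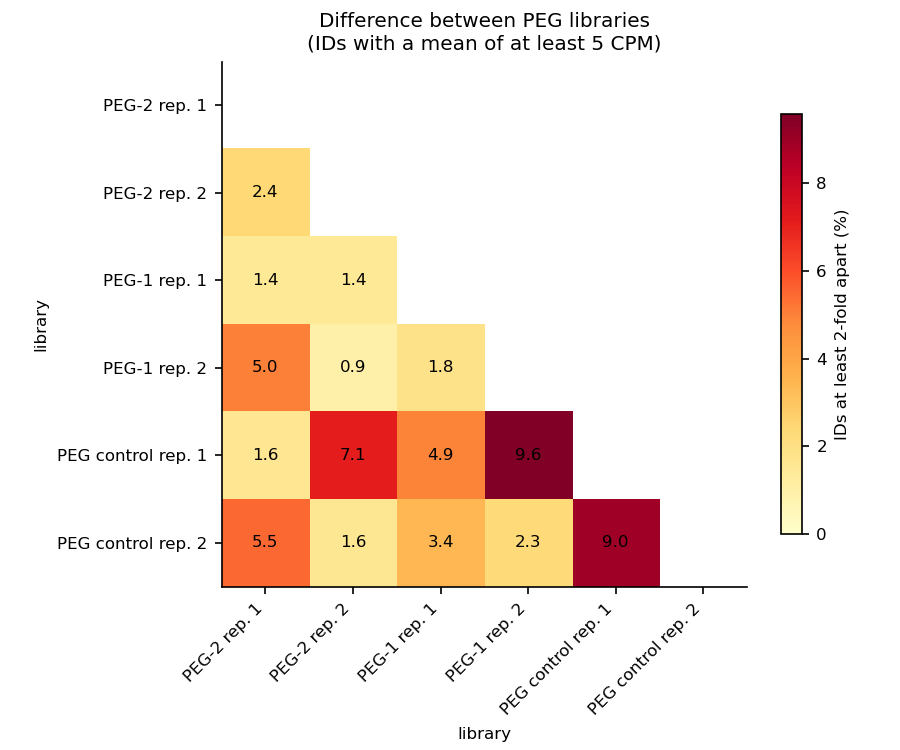
Share of IDs (%) at least 2-fold apart between each pair of PEG libraries, among the 17035 IDs that averaged 5 CPM or more. Rows and columns are single libraries, darker cells mark a larger share; the PEG control pair stands at 8.95% and the PEG-2 pair at 2.37%.

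No transcript passed the test between PEG-2 and the PEG control. With edgeR's quasi-likelihood test on 36410 sufficiently abundant IDs, 0 had a Benjamini-Hochberg adjusted p under 0.05 (0%), and the smallest adjusted p was 1. At an unadjusted p under 0.05 there were 684 IDs (1.88%), 375 of them higher in PEG-2 (1.03%) and 309 lower (0.849%). Where no ID differs, a share of about 0.05 falls under that threshold, so in this fit the 684 were no excess. The fit took no account of the replicate number, and with that number as a block the share was larger (see the dependence on processing below). The split between directions depended on single libraries: it was 391 higher and 433 lower without PEG-2 replicate 1, 182 and 286 without PEG-2 replicate 2, 668 and 325 without PEG control replicate 1, and 697 and 585 without PEG control replicate 2. DESeq2, run as an alternative tool on the same libraries, gave an adjusted p under 0.05 to 17 of 36390 IDs (0.0467%), 15 higher and 2 lower. Counts by direction below are therefore descriptions. For a single ID, 2 libraries against 2 cannot reach an exact permutation p below 0.333.

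Both PEG-2 libraries lay above both control libraries for 4757 IDs (13.1%) and below both for 4778 IDs (13.1%). Were the 4 libraries interchangeable, order alone would separate the groups, in either direction, for a share of 0.333 of IDs. Both observed shares together stayed under that. The libraries were not interchangeable, however, since those of the same replicate number were closer across the lines than the replicates of either line. The comparison with 0.333 therefore cannot tell whether the lines differ. Over all tested IDs the median log2 difference, PEG-2 minus PEG control, was -0.012, with quartiles at -0.23 and 0.18. The scaling sets where this centre lies, so the near-equal counts are no result. With upper-quartile scaling, 4510 IDs lay above and 5044 below.

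The ratio of higher to lower IDs differed between abundance levels. Among scarce IDs, with a mean of 0.5 to 1 CPM over the 4 libraries, 12.5% lay above both controls in PEG-2 and 15.4% below. From 1 to 5 CPM the shares were 12.7% above and 14.2% below, and from 5 to 20 CPM they were 12.9% and 12.6%. In the level of 20 to 100 CPM, 13.2% lay above and 10.2% below. Among the 1188 IDs at 100 CPM or more, 149 (12.5%) lay above and 108 (9.09%) below. The share above thus stayed near the 13.1% found over all IDs, while the share below was smaller at each higher level from 0.5 CPM upward. With upper-quartile scaling, chosen after seeing the data, the share below ran in the same order, 15.9% from 0.5 to 1 CPM and 9.60% at 100 CPM or more. The ratio of higher to lower IDs did depend on the scaling. With upper-quartile scaling the shares from 5 to 20 CPM were 12.0% above and 13.7% below. From 20 to 100 CPM they were 12.1% and 11.2%. Below 0.5 CPM, where few read pairs stand behind a value, the shares were 14.2% above and 14.5% below.

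The size of the differences was smaller in the more abundant levels, up to 20 CPM. The span between the quartiles of the log2 difference was 1.19 for IDs under 0.5 CPM, 0.48 from 1 to 5 CPM, 0.29 from 5 to 20 CPM, 0.23 from 20 to 100 CPM and 0.24 at 100 CPM or more. At 100 CPM or more no ID was at least 2-fold higher with groups that did not overlap, and 2 were at least 2-fold lower. At an unadjusted p under 0.05, that level held 0 IDs higher in PEG-2 (0%) and 7 lower (0.589%). Over all tested IDs these shares were 1.03% and 0.849%.

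**Figure D2:**
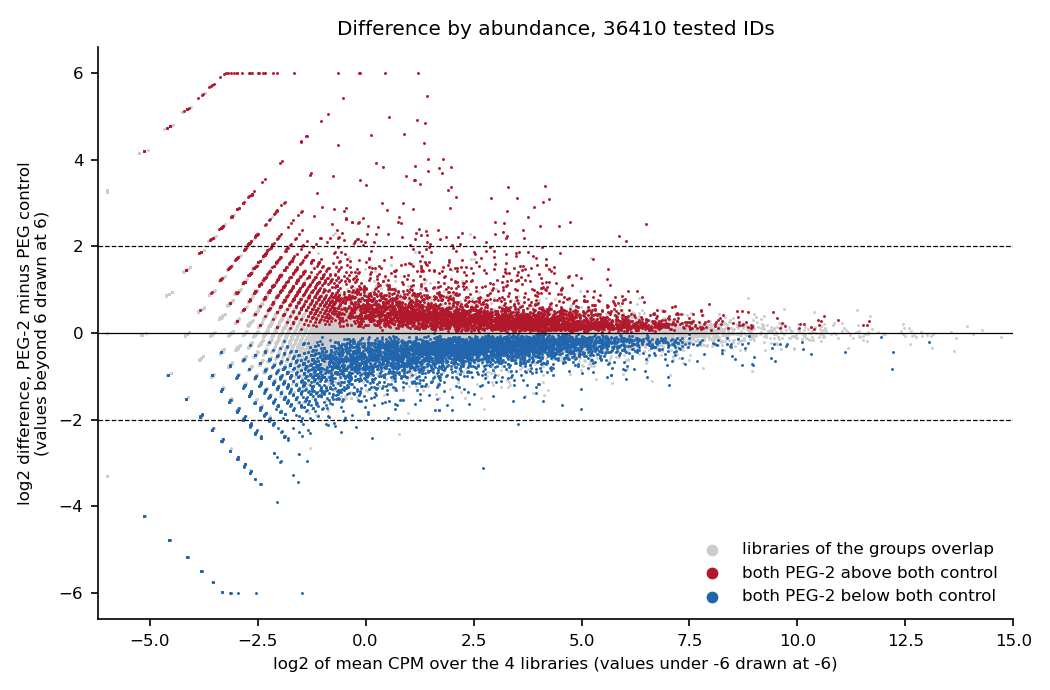
Log2 difference between PEG-2 and the PEG control (vertical axis) against the log2 mean CPM over the 4 libraries (horizontal axis), with 1 point per tested ID (36410). Red points have both PEG-2 libraries above both control libraries (4757), blue points have both below (4778); beyond the dashed lines, which mark 4-fold, lie 82 red and 3 blue points at a mean of 1 CPM or more. Values beyond 6 on the vertical axis are drawn at 6.

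Among the 7 abundant IDs that were lower, ERF61299-ERC38031 had the smallest p and ERF60595-ERC48086 the highest level. They were named after their values were seen. ERF61299-ERC38031 was at 388 and 361 CPM in PEG-2, against 619 and 624 CPM in the PEG control, that is, -0.73 on the log2 scale (SE 0.22; edgeR adjusted p = 1). PEG-1 was at 513 and 622 CPM and overlapped the control. PEG-2 and the control did not overlap, and the replicates of each line were close. ERF60595-ERC48086 was at 2740 and 4005 CPM in PEG-2, against 4770 and 7165 CPM in the PEG control, that is, -0.82 on the log2 scale (SE 0.30; edgeR adjusted p = 1). Replicate 2 was the higher one in both lines.

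The 3 classes of ID differed little in how often they lay above the controls and somewhat more in how often they lay below. Both PEG-2 libraries were above for 12.8% of the 17297 joined IDs, 13.6% of the 10485 ERF-only IDs and 12.98% of the 8628 ERC-only IDs. Both were below for 12.0% of joined, 13.6% of ERF-only and 14.7% of ERC-only IDs. The classes were spread unequally over the levels, which are not divided by gene length: 885 of the 1188 IDs at 100 CPM or more were joined, and 1530 of the 5760 under 0.5 CPM. Within the level of 1 to 5 CPM the shares below were 12.7% for joined, 15.2% for ERF-only and 15.5% for ERC-only IDs. From 5 to 20 CPM they were 12.8%, 11.1% and 13.7%, so the order of the classes was not the same at every level. At 100 CPM or more, 18 of 119 ERC-only IDs (15.1%) lay below, against 8.25% of joined and 9.24% of ERF-only IDs. No test was made of these differences, since IDs are not replicates of a line.

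**Figure D3:**
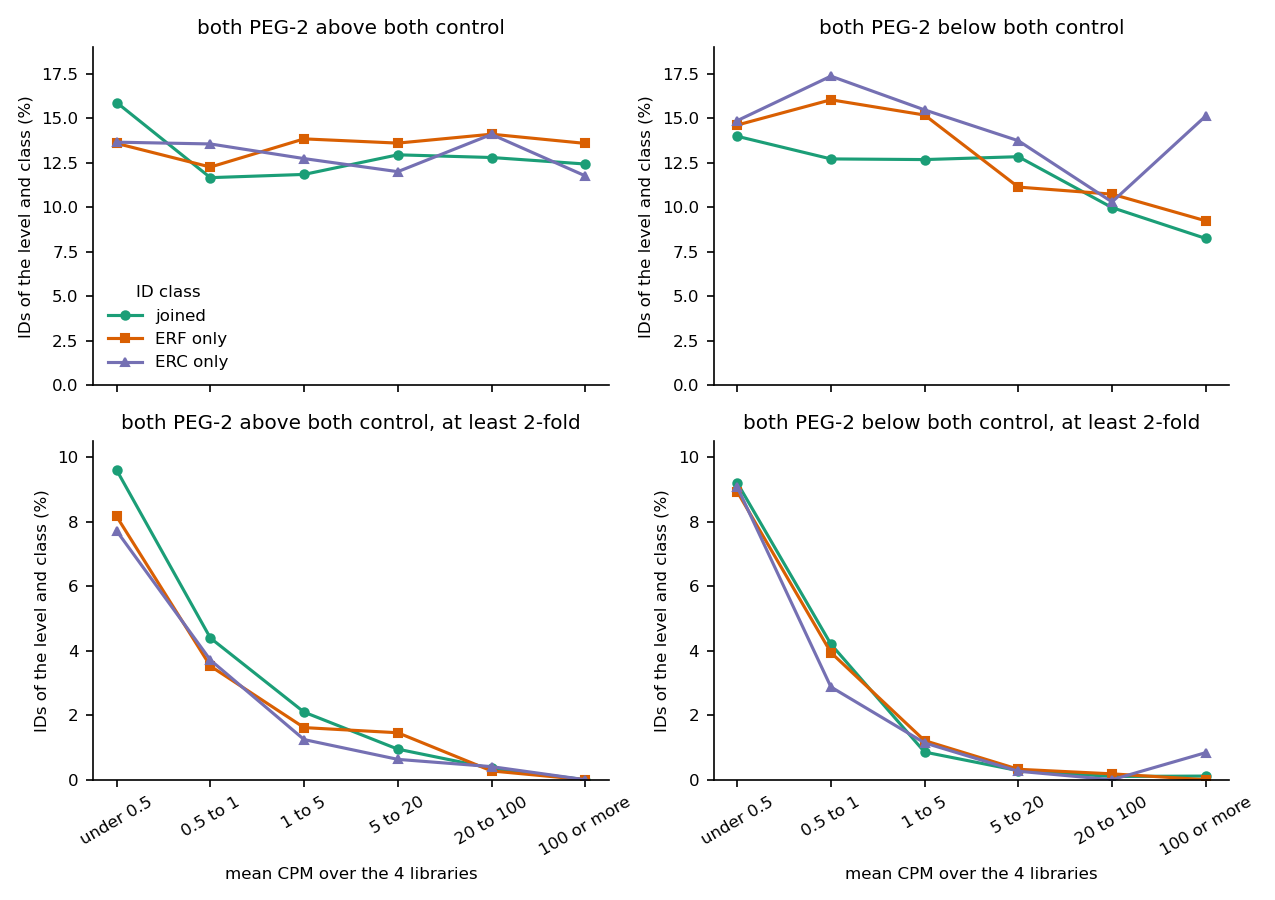
Share of IDs (%) with both PEG-2 libraries above (left) or below (right) both PEG control libraries, by mean CPM (horizontal axis) and class of ID (coloured lines); the lower panels count only IDs that also differ at least 2-fold. Shares above stay between 11.7% and 15.9%, and at least 2-fold differences are rare above 20 CPM.

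Large differences ran mostly upward in PEG-2 when both its libraries were used. Among the 27336 IDs that averaged 1 CPM or more, 298 were at least 2-fold higher with groups that did not overlap and 145 were at least 2-fold lower. At 4-fold or more there were 82 higher and 3 lower, and at 8-fold or more 34 higher and 1 lower. This rested on PEG-2 replicate 2: when it was left out, 240 IDs were at least 2-fold higher and 433 lower, and 28 were at least 4-fold higher and 34 lower. Without PEG-2 replicate 1 the 2-fold counts were near-equal, at 510 higher and 501 lower. They were 898 and 409 without PEG control replicate 1, and 1040 and 587 without PEG control replicate 2. The 4-fold counts were 132 higher and 39 lower without PEG-2 replicate 1, without PEG control replicate 1 they were 130 and 15, and without PEG control replicate 2 they were 215 and 23. With a single library in a line, groups fail to overlap more easily by construction, and the counts of higher IDs dropped only without PEG-2 replicate 2.

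The 82 IDs at least 4-fold higher were scarce to moderately abundant, with mean levels over the 4 libraries from 1.01 to 90.5 CPM and a median of 2.77 CPM. Joined IDs made up 48 of them (58.5%), against 53.9% of all IDs tested at this level, with 24 ERF-only and 10 ERC-only IDs. PEG-2 replicate 2 lay above PEG-2 replicate 1 in 79 of the 82, by a median log2 difference of 1.097. PEG-2 replicate 1 on its own was at least 2-fold above the control mean in 77 and at least 4-fold in 38, while PEG-2 replicate 2 was at least 4-fold above it in all 82. The median fold over the control mean was 3.78 in replicate 1 and 8.84 in replicate 2. In the PEG control, replicate 2 was the higher library in 55 of the 82. The part of this replicate difference in the counts was not tested.

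The same 82 IDs were looked up in the EUE experiment, which shares no library with this comparison. All 3 EUE epiline libraries lay above all 3 EUE control libraries for 73 of the 82 (89.0%), and for 0 were all 3 below. Of all tested IDs 3.8% lay above in that way and 2.81% below, of the 27336 IDs at this level 3.63% lay above, and the 73 made up 7.36% of those 992 IDs. The median log2 difference of the 82 was 2.62 in PEG-2 against its control and 3.19 in the EUE epiline against its own. PEG-1 against the PEG control had a median of 3.50, but that value rests on the same control libraries. The mean level in PEG-1 exceeded that in PEG-2 for 76 of the 82.

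Of the 145 IDs at least 2-fold lower, 3 lay below and 1 above in the EUE experiment in the same sense, with a median log2 difference of -0.27. Both PEG-2 libraries lay below the 4 other PEG libraries for 78 of the 145 (53.8%). Of all 4778 IDs below both controls, 1929 did so, or 5.3% of all tested IDs. They lay above those libraries for 25 of the 298 that were at least 2-fold higher (8.39%). Of all 4757 IDs above both controls, 1590 did so, or 4.37% of all tested IDs. Both sets lay beyond both controls by choice, so the separated IDs are the nearer comparison. The sets were chosen by the same PEG-2 values, so the shares are descriptions. PEG-2 replicate 2 was the higher replicate in 86 of the 145. The 3 IDs at least 4-fold lower were ERF91166, ERF57645 and ERC29139, the last of them named after its values were seen, as was ERF57645. ERF57645 was at 0.210 and 0.487 CPM in PEG-2, against 1.59 and 2.13 CPM in the PEG control. ERC29139 was at 5.47 and 3.16 CPM in PEG-2, at 0.995 and 1.56 CPM in PEG-1 and at 8.93 and 28.4 CPM in the PEG control, where replicate 2 was the high one.

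At 1 CPM or more, the lowest p values among IDs higher in PEG-2 belonged to ERF70161-ERC56186 and ERC58851. ERF70161-ERC56186 was at 6.05 and 5.47 CPM in PEG-2, against 2.104 and 1.614 CPM in the PEG control. The replicates of each line were close, and every PEG-2 value was above every control value. The difference came to 1.63 on the log2 scale, 3.09-fold (SE 0.34; edgeR adjusted p = 1; 0.0362 to 1 over 21 alternatives, the lowest in DESeq2). ERC58851 was at 3.05 and 1.58 CPM in PEG-2, against 0.341 and 0.231 CPM in the PEG control, that is, 3.01 on the log2 scale (SE 0.66; edgeR adjusted p = 1; 0.0362 to 1 over 20 alternatives). Here the PEG-2 replicates lay further apart, yet the lower of them was still well above both controls.

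By class, the ID of at least 5 CPM with the smallest p among those higher was ERF61844-ERC57624 for joined, ERF94231 for ERF-only and ERC47958 for ERC-only IDs. ERF61844-ERC57624 was at 17.9 and 46.7 CPM in PEG-2, against 3.01 and 3.17 CPM in the PEG control, that is, 3.38 on the log2 scale (SE 0.77; edgeR adjusted p = 1; 0.0133 to 1 over 21 alternatives, the lowest in DESeq2). Its controls were nearly equal and its PEG-2 replicates were not, and without PEG-2 replicate 2 the difference was 2.52 on the log2 scale. ERC47958 was at 22.8 and 32.4 CPM in PEG-2, against 2.96 and 7.03 CPM in the PEG control, 5.53-fold or 2.47 on the log2 scale (edgeR adjusted p = 1). Without PEG control replicate 2 its log2 difference was 3.22. ERF94231 was at 9.52 and 8.03 CPM in PEG-2, against 5.40 and 3.00 CPM in the PEG control, 2.09-fold (edgeR adjusted p = 1). In PEG-1 it was at 6.52 and 5.05 CPM, overlapping the control, so that PEG-2 alone of the PEG groups lay above the others.

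Of the 15 IDs that DESeq2 called higher, 11 were joined, 2 ERF-only and 2 ERC-only. ERF81604, named after its values were seen, had 0 counts in both PEG control libraries against 8 and 112 in PEG-2 and was at least 10.53-fold higher. That bound rested on PEG-2 replicate 2 and was 1.22-fold without it and 19.8-fold without replicate 1. The other 14 had log2 differences of 1.63 to 5.47 in the edgeR fit. The upper end belonged to ERC60430, at 3.29 without PEG-2 replicate 2, 6.31 without PEG-2 replicate 1 and 6.42 without PEG control replicate 1. The 15 had an edgeR unadjusted p of 0.000549 to 0.00338 and a DESeq2 adjusted p of 0.00476 to 0.0461. Mean levels were 1.81 to 32.3 CPM in PEG-2, against 0 to 3.78 CPM in the PEG control. PEG-2 replicate 2 was the higher replicate in 13 of the 15. All 15 lay above in the EUE epiline libraries too, where 3.8% of tested IDs did. The lowest DESeq2 adjusted p belonged to ERC60430 and ERF81066-ERC23699. ERC60430 was at 1.16 and 9.30 CPM in PEG-2, against 0.171 and 0.0576 CPM in the PEG control (adjusted p = 0.00476 in DESeq2 and 1 in edgeR, within that range over 21 alternatives). ERF81066-ERC23699 was at 5.20 and 9.61 CPM in PEG-2, against 0.398 and 0.634 CPM in the PEG control (adjusted p = 0.00712 in DESeq2 and 1 in edgeR, within that range over 21 alternatives). For ERC60430 the 2 PEG-2 libraries lay far apart, at 1.16 and 9.30 CPM, and both still lay above the controls.

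On the lower side, 3 of the 4 IDs named by p put both PEG-2 libraries below those of PEG-1 as well as those of the control. ERF82036 was at 1.42 and 1.34 CPM in PEG-2, at 6.14 and 4.57 CPM in PEG-1 and at 5.52 and 3.98 CPM in the PEG control. The PEG-2 replicates were nearly equal and lay below all other PEG libraries. Against the control the difference came to -1.78 on the log2 scale (SE 0.38; edgeR adjusted p = 1; 0.0362 to 1 over 21 alternatives, the lowest in DESeq2). ERC43269 was at 5.41 and 3.41 CPM in PEG-2, at 8.74 and 10.26 CPM in PEG-1 and at 6.996 and 10.26 CPM in the PEG control (-0.97 against the control on the log2 scale, SE 0.27, edgeR adjusted p = 1). ERF77158-ERC34932 had the smallest p among lower joined IDs of at least 5 CPM with groups that did not overlap. It was at 20.7 and 23.9 CPM in PEG-2, against 39.19 and 45.01 CPM in the PEG control, that is, -0.92 on the log2 scale (SE 0.27; edgeR adjusted p = 1). ERF91166, the ERF-only ID chosen in the same way, was at 0.894 and 1.82 CPM in PEG-2, against 2.50 and 21.1 CPM in the PEG control. The difference of -3.12 on the log2 scale (SE 0.88; edgeR adjusted p = 1) came to -0.88 when PEG control replicate 2 was left out and was -3.96 when replicate 1 was, and PEG-1 was as low as PEG-2, at 1.38 and 1.34 CPM.

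**Figure D4:**
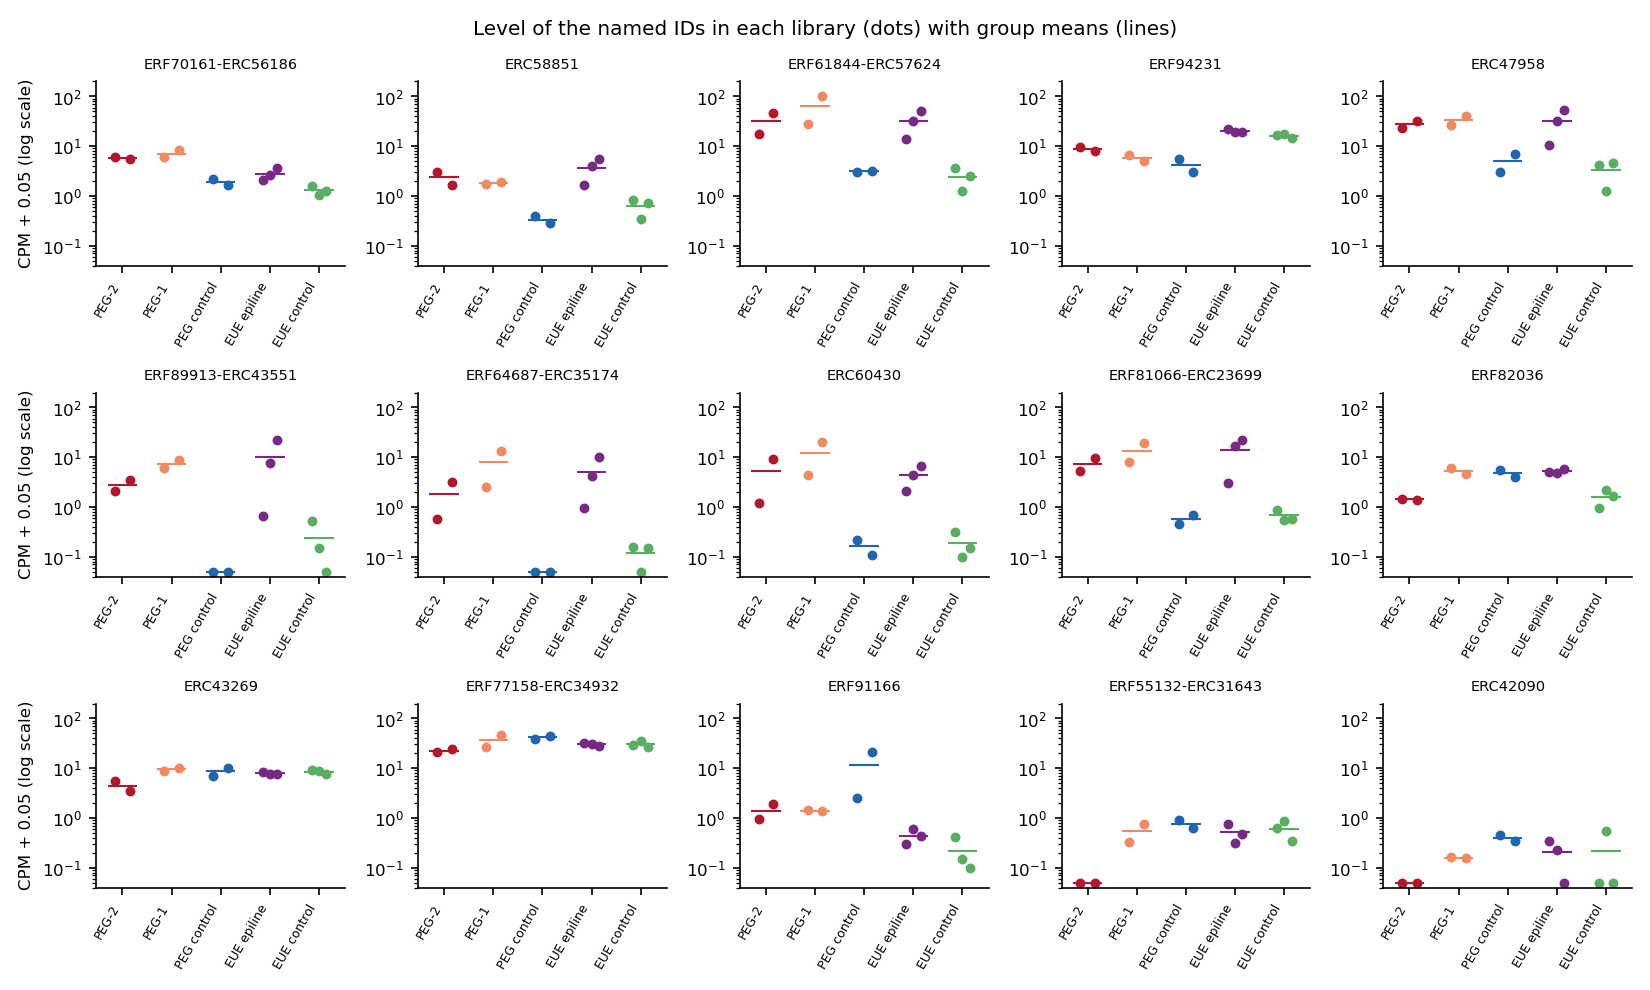
Level of the 15 IDs named by rule in every library (dots; CPM plus 0.05 on a log axis) with group means (lines), for PEG-2, PEG-1, the PEG control, the EUE epiline and the EUE control. The first 9 panels are higher in PEG-2 than in the PEG control and the last 6 lower; in ERF82036, PEG-2 lies at 1.42 and 1.34 CPM, below all other PEG libraries.

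The direct comparison of PEG-2 with PEG-1 called 0 IDs in edgeR (0%), with 591 at an unadjusted p under 0.05 (1.62%). That share, too, was under the 0.05 expected where no ID differs. DESeq2 called 1 ID (0.00275%), ERF82036, lower in PEG-2. Both PEG-2 libraries lay above the 4 other PEG libraries for 1590 IDs (4.37%) and below them for 1929 (5.3%). The corresponding counts were 2304 above (6.33%) and 2454 below (6.74%) for PEG-1. For the PEG control they were 2179 above (5.98%) and 2346 below (6.44%). PEG-2 thus had the fewest such IDs in both directions. With abundance, PEG-2's shares crossed: 4.36% of IDs under 0.5 CPM lay above and 7.05% below, and at 100 CPM or more 5.13% lay above and 2.61% below. In PEG-1 the shares ran the other way, from 8.3% above and 5.14% below under 0.5 CPM to 2.36% above and 7.24% below at 100 CPM or more. Whether these shares differ between the lines was not tested.

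Of the 17035 IDs at 5 CPM or more, 805 set PEG-2 above and 733 below all other PEG libraries, most by small margins. Over all tested IDs the shares were 4.37% and 5.3%, smaller than in PEG-1 or the PEG control. In 1 of the 805 and 3 of the 733 was the gap to the nearest other PEG library at least 1.5-fold. These extremes were chosen after their values were seen. ERF63360, the ID above, was at 9.04 and 9.06 CPM in PEG-2, 5.64 and 4.24 CPM in PEG-1, and 5.92 and 3.92 CPM in the PEG control (edgeR adjusted p = 1 against either). ERF75910-ERC47779 had the widest gap below, 2.03-fold, at 2.94 and 2.19 CPM in PEG-2, 5.97 and 8.65 CPM in PEG-1, and 7.28 and 8.76 CPM in the PEG control (edgeR adjusted p = 1 against either). Against the control that was a difference of -1.64 on the log2 scale (SE 0.58).

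IDs lost in PEG-2 were few, and nearly all of them were scarce in the control. An ID was counted as lost when it had 0 counts in both PEG-2 libraries and at least 6 counts, or 3 read pairs, in each PEG control library. There were 15: 3 joined, 9 ERF-only and 3 ERC-only, of which 6 were abundant enough to test. In 14 of the 15 no control library exceeded 20 counts. A count of 0 allows up to 6 counts, about 0.158 CPM in PEG-2 replicate 1 and 0.182 CPM in PEG-2 replicate 2 (counting error only). Measured against the mean of these floors, the lost IDs were at least 1.01-fold to 4.2-fold lower, with a median of 1.34, so for most of them the depth does not show a loss of any size.

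ERF55132-ERC31643 was the exception. It had 0 and 0 counts in PEG-2, against 30 and 20 counts in the PEG control, or 0.853 and 0.576 CPM. At least 4.2-fold lower in PEG-2 by that floor, it had an edgeR adjusted p of 1 (0.0362 to 1 over 20 alternatives, the lowest in DESeq2). Every other library of the series held it, with 10 and 26 counts in PEG-1, 12 to 28 counts in the EUE epiline and 12 to 32 counts in the EUE control. ERC42090, the next in level, had 0 counts in both PEG-2 libraries, against 14 and 10 counts in the PEG control, at least 2.02-fold lower (edgeR adjusted p = 1). It had 4 counts in each PEG-1 library and 0 in 3 of the 6 EUE libraries. Taking all 15 together, the counts summed to 68 and 86 in PEG-1, against 142 and 128 in the PEG control, and in no case were both PEG-1 libraries at 0. By raw counts, none of the 15 separated the epiline from its control in either direction in the EUE experiment.

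The opposite case was slightly more frequent and reached higher levels. With 0 counts in both PEG control libraries and at least 6 in each PEG-2 library there were 18 IDs, 12 of them joined, 5 ERF-only and 1 ERC-only. ERF89913-ERC43551 had 76 and 114 counts in PEG-2, 2.00 and 3.47 CPM, against 0 and 0 in the PEG control, and was at least 15.9-fold higher by the floor (edgeR adjusted p = 1; 0.131 to 1 over 21 alternatives). PEG-1 had 216 and 320 counts of it. ERF64687-ERC35174 had 20 and 102 counts in PEG-2, against 0 and 0 in the PEG control, at least 10.6-fold higher (edgeR adjusted p = 1; 0.113 to 1 over 21 alternatives). Without PEG-2 replicate 2 that bound was 3.06-fold, and without PEG-2 replicate 1 it was 18.05-fold. Again replicate 2 was the higher PEG-2 library, as it was in PEG-1, with 88 and 498 counts.

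Over the 18 IDs the counts summed to 288 and 506 in PEG-2 and to 606 and 1576 in PEG-1, against 0 and 0 in the PEG control. By raw counts, 7 of the 18 lay above in all EUE epiline libraries and 0 below. Of the 18, 14 were abundant enough to test, the 7 among them. The filter for testing also used the EUE libraries, so a high level there could help an ID to pass. Of all tested IDs 3.8% lay above and 2.81% below, but by CPM, which is not quite the same measure. Most of the 18 were near the floor: 14 had at most 20 counts in either PEG-2 library, and the median least fold was 1.69. How reads were divided between near-identical gene copies is not given in the sources used here, so a count of 0 can also mean that reads were assigned to another copy.

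**Figure D5:**
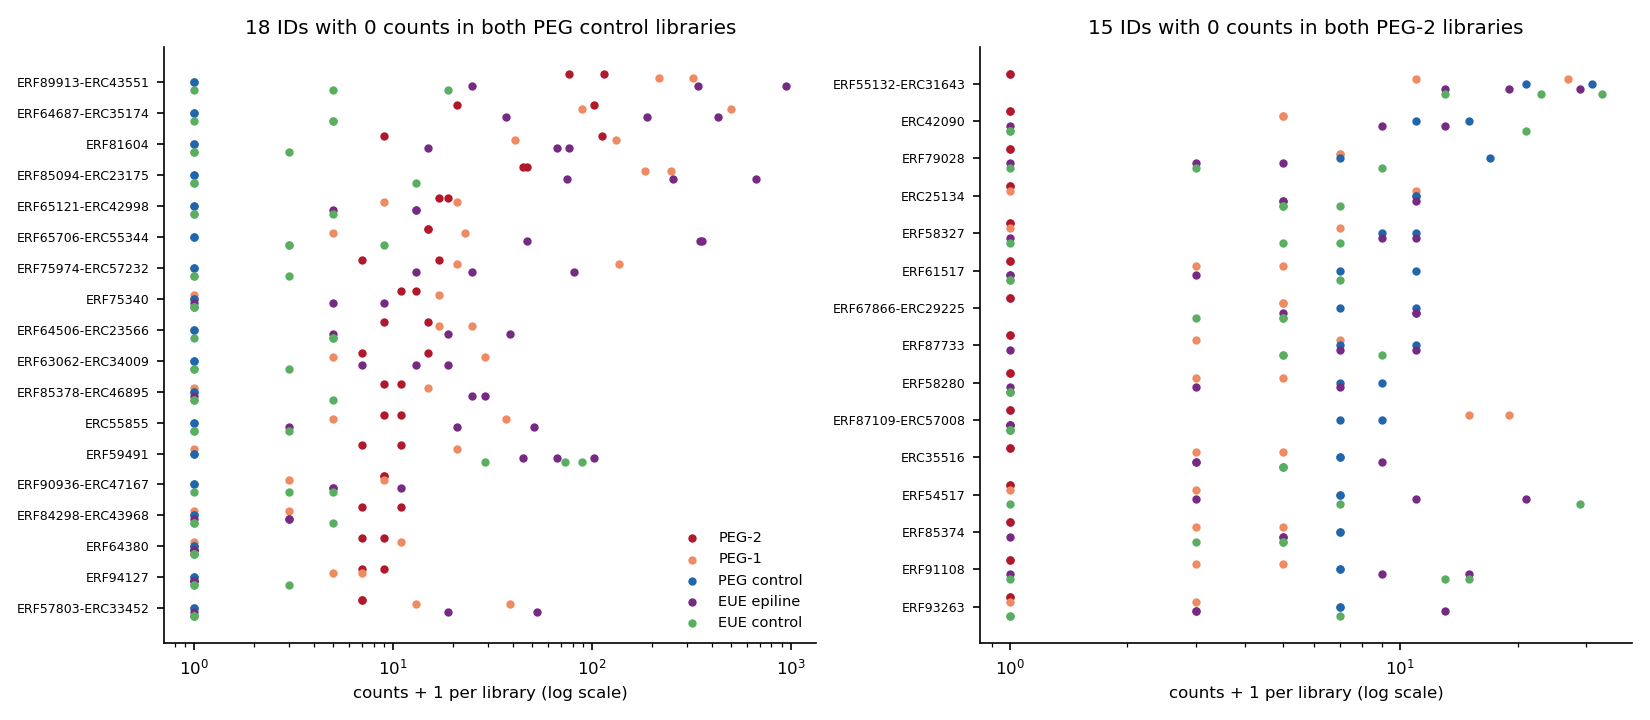
Counts per library (plus 1, log axis) of the 18 IDs absent from both PEG control libraries and at 6 counts or more in each PEG-2 library (left), and of the 15 IDs absent from both PEG-2 libraries and at 6 counts or more in each PEG control library (right). Each dot is 1 library, coloured by group; on the right only ERF55132-ERC31643 exceeds 20 counts in a PEG control library.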

How the data were processed

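Polysomal leaf RNA was measured in 12 libraries. The deposited file holds the authors' read counts per gene ID, not normalized, and 0 columns belonged to samples outside the series. GSNAP and SAMtools are named in the submitters' processing notes. For the genome build, annotation, counting program and use of strand, the sources used here give nothing. Reads of near-identical copies or overlapping genes may therefore have been split or dropped. All counts were even (0 odd values), as if both mates of a pair were counted, so a floor of 3 read pairs is 6 counts.

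From the counts, edgeR 4.0.16 (R 4.3.3) was used with TMM scaling, filterByExpr (minimum count 10, over 5 groups) and the quasi-likelihood F-test in 1 two-sided fit over all 12 libraries. The Benjamini-Hochberg adjustment covered all 36410 IDs, with a threshold of 0.05. A standard error (SE) is the log2 difference divided by the square root of F. DESeq2 1.42.0 was an alternative. Alternatives were other scalings and filters, fewer libraries, the replicate number as a block, halved counts and each library left out. The fits were also run on simulated data with known changes, and how many of these were recovered at each fold is not given here. Replicates were distinct libraries: the chi-square per ID, from counts divided by 2, came to 15.6 in the PEG-2 pair and 37.3 in the PEG control pair, where sampling noise alone gives about 1.

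IDs were named by rule: the 2 with the smallest p in each direction (at least 1 CPM, groups not overlapping), 1 per class and direction (at least 5 CPM), the 2 most abundant lost and gained, the 2 that DESeq2 called higher with the lowest adjusted p and those it called lower. Levels, classes, lists and tests were chosen with earlier results of these data known. The counts by fold, the counts against all other PEG libraries, the bounds with a library left out and the EUE look-up were added after the data were seen.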

Additional observations from a re-analysis of the deposited data

Results flagged for a closer look

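ERF82036 moved in opposite directions in the PEG-2 line and the EUE epiline. Its log2 difference was -1.78 in PEG-2 against the PEG control, with both PEG-2 libraries (1.42 and 1.34 CPM) below both controls (5.52 and 3.98 CPM). In the EUE experiment all 3 epiline libraries (5.11, 4.67 and 5.76 CPM) lay above the controls (0.89, 2.15 and 1.60 CPM). In edgeR's fit, the difference between both effects was -3.52 on the log2 scale, with an unadjusted p of 1.5e-05 and an adjusted p of 0.564, so it did not pass.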

How the results depend on the processing

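edgeR called 0 IDs between PEG-2 and the PEG control under every alternative except 1 with the PEG libraries only (ERF56853-ERC48126, higher, named after its values were seen), and DESeq2 called 17. Leaving out any 1 of the 12 libraries gave 0 to 0. Against PEG-1 it called 0 throughout, also with any library left out (0 to 0), and DESeq2 called 1. IDs at an unadjusted p under 0.05 were 375 higher and 309 lower. They were 179 and 142 with a filter of 5 CPM in 2 libraries, and 601 and 580 with the PEG libraries only. With 1 library left out they ran from 182 to 697 and from 272 to 585, the lowest count higher without PEG-2 replicate 2 and both highest counts without PEG control replicate 2. Same-numbered libraries deviated together in PEG-2 and the PEG control (r = 0.69 over 17413 IDs) and in PEG-2 and PEG-1 (r = 0.55). With only 2 numbers, and labels that do not say what a number marks, they share only a number. With the replicate block, 997 IDs were higher and 1173 lower at an unadjusted p under 0.05, so that lower IDs outnumbered higher ones. Together they made up slightly more than a share of 0.05 of the 36410 tested IDs, unlike in the main fit, and 0 were called. Counts divided by 2 changed no count by more than 1.5 times.

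IDs above and below both controls, 4757 and 4778, were 2440 and 2516 under the 5 CPM filter and 1699 and 1781 at least 1.5-fold apart. Leaving 1 library out, which makes separation easier by construction, gave 4919 to 13321 and 4932 to 14116. The counts beyond all other PEG libraries, 1590 and 1929, were 772 and 998 under that filter, and 2469 to 5728 and 2847 to 6611 with a library left out. Without 1 library, 240 to 1040 IDs were 2-fold higher and 409 to 587 lower, lower IDs being the more numerous without PEG-2 replicate 2, and 28 to 215 were 4-fold higher and 15 to 39 lower. With overlapping groups counted too, 5 were 4-fold lower. Lost and gained IDs, 15 and 18, were 1 and 3 at a minimum of 20 counts, 81 and 94 when up to 2 counts passed as absent, and 82 to 125 and 84 to 140 with a library left out. No named ID reversed, and 7 passed in DESeq2. Depth limits statements on IDs near 6 counts.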

Other observations

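Absent IDs were also counted between the other PEG groups. With 0 counts in both libraries of one group and at least 6 in each library of the other, 24 IDs were absent from PEG-2 and present in PEG-1, and 7 were absent from PEG-1 and present in PEG-2. Against the PEG control, 15 were absent from PEG-2 and 14 from PEG-1. Absent from 1 group and present in all 4 libraries of the other groups were 3 IDs for PEG-2, 3 for PEG-1 and 8 for the PEG control.

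IDs of neighbouring number were looked at in 1 stretch only, where most ERC-only IDs were lower in PEG-2. Among the 42 tested ERC-only IDs from ERC29129 to ERC29322, a range chosen after its values were seen, 34 had a negative log2 difference between PEG-2 and the PEG control. Both PEG-2 libraries lay below both controls for 18 of the 42 and above for 0, and the median log2 difference was -0.42. Of all tested IDs, 13.1% lay below and 13.1% above. The 81 joined IDs whose ERC number falls in the same range had a median of 0.024, with 9 below and 18 above. What the order of the numbers stands for is not given in the sources used here.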
